A study of Mus musculus with 6 samples.

Results

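The oocyte genes examined here encode the zona pellucida proteins (Zp1, Zp2 and Zp3), the growth factors Gdf9 and Bmp15, the secreted protein Oosp1 and the fibroblast growth factor Fgf8. They were chosen by symbol, as 7 of the 44788 genes listed in the count table of mouse ovaries, and all 7 passed the filter on low counts that left 19423 genes to be tested. Whole-ovary RNA was sequenced from 6 libraries of C57BL/6 J mice 8 weeks old. The wild type, Bnc1+/+, gave replicates 1, 4 and 7, and the mutant, Bnc1tr/tr, gave replicates 1, 2 and 3; the study's methods describe its comparisons as between littermates. Bnc1tr/tr mice are homozygous for a frameshift deletion that truncates the transcription factor basonuclin 1 in every cell of the body, so the oocyte and the somatic cells of the ovary both carry it. No treatment is named for these mice, and the stage of the estrous cycle at collection is not given in the sources used here. The question was how the mutation affects the transcripts by which the oocyte builds its coat and signals to the follicle.

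Each library held between 25247770 and 34406296 counts, with the larger totals in Bnc1+/+ ovaries. Levels are given as CPM, a gene's share of the counts of its library, on the usual CPM scale, after scaling by edgeR's TMM factors. A gene was called when the quasi-likelihood test of edgeR gave it an adjusted p under 0.05 over all genes tested. Across all genes, 2.88% were called higher and 4.19% lower in Bnc1tr/tr ovaries, with a median log2 fold change of 0.018. Bnc1 itself was read at 13.5 ± 0.405 CPM in Bnc1+/+ and 14.6 ± 3.72 CPM in Bnc1tr/tr ovaries (SD, n = 3 each; log2 fold change 0.12, edgeR adjusted p = 0.733), and a count over the whole gene does not show the deletion. Oviduct transcripts stood apart in Bnc1+/+ replicate 1 and Bnc1tr/tr replicate 3, whose summed CPM over 10 oviduct markers was 155 and 553, against 16.3 to 33.2 in the other ovaries. Nothing found in the labels says whether 1 library is 1 animal or a pool, so p-values measure the spread between these libraries.

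The zona pellucida is the glycoprotein coat that a growing oocyte lays down around itself, which sperm must bind and cross at fertilization. In the mouse it is made of ZP1, ZP2 and ZP3: ZP2 and ZP3 form the filaments and ZP1 cross-links them. GDF9 and BMP15 are ligands of the TGF-β family secreted by the oocyte, and together with FGF8 they drive granulosa and cumulus cells to divide, to make the cumulus matrix and to feed the oocyte through glycolysis. These genes are expressed in growing oocytes. The basic helix-loop-helix factor FIGLA activates the zona genes through E-boxes, and the homeobox factor NOBOX activates Gdf9, Bmp15 and other oocyte genes.

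RefSeq promoter sequences were found for 3 of the 7 genes, Zp3, Bmp15 and Oosp1, and all 3 are shown. A link between their motifs and their fold changes was not tested. The bases lie upstream of the RefSeq start in GRCm38.p6, are written 5′ to 3′ on the strand of the gene, and stop at that start or, for Zp3 and Oosp1, where GENCODE M21 begins the gene further upstream. They cover chr5:135979855-135980098 on the plus strand for Zp3, chrX:6320725-6320974 on the minus strand for Bmp15 and chr19:11691151-11691301 on the minus strand for Oosp1. Capitals mark the E-box CANNTG, which reads the same on both strands, the motif that FIGLA and many other factors bind, and the homeobox motifs TAATTG (or CAATTA on the other strand) and TAATTA, the kind that NOBOX binds. No match overlapped another.
Zp3: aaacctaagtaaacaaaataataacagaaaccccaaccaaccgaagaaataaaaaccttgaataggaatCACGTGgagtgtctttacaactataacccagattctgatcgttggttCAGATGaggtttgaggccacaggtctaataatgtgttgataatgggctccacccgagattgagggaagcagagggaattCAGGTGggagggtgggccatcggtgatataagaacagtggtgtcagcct
Bmp15: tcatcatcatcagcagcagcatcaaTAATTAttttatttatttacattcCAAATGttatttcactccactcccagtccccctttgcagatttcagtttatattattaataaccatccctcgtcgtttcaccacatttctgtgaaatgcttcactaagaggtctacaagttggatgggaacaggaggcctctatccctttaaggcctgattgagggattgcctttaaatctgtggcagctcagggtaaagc
Oosp1: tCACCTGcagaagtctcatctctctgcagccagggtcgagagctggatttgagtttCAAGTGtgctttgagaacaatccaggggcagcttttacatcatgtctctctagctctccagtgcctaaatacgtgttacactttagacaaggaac

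The Zp3 window held 3 E-boxes, CACGTG at 181, CAGATG at 134 and CAGGTG at 55 bases upstream of the start. The Bmp15 window held 1 E-box, CAAATG, at 201 bases, and the only homeobox motif found, TAATTA at 225 bases. In the Oosp1 window, CACCTG began at 249 and CAAGTG at 194 bases. E-boxes of this kind are common: 65.6%, 66.2% and 49.5% of the 32851 promoters in the table held at least 1 in windows of the same length as those of Zp3, Bmp15 and Oosp1, respectively. TAATTA was found in 4.84% of windows as long as that of Bmp15. A match is a string of letters and not a measured binding site.

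Of the 7 genes, 4 rose in Bnc1tr/tr ovaries: Gdf9, Bmp15, Oosp1 and Fgf8. Zp1 just missed the threshold, and Zp2 and Zp3 had smaller differences that stayed within the spread between ovaries. None was called lower, and all 7 log2 fold changes were positive, from 0.22 for Zp2 to 1.48 for Fgf8, with a median of 0.78. The count of 4 compares with 2.88% of all genes called higher. In 5 of the 7 genes every Bnc1tr/tr ovary lay above every Bnc1+/+ ovary, which was so for 15.0% of all genes tested. A higher share of oocyte RNA in the ovary and more RNA of these genes per oocyte cannot be told apart in whole tissue.

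**Figure D1:**
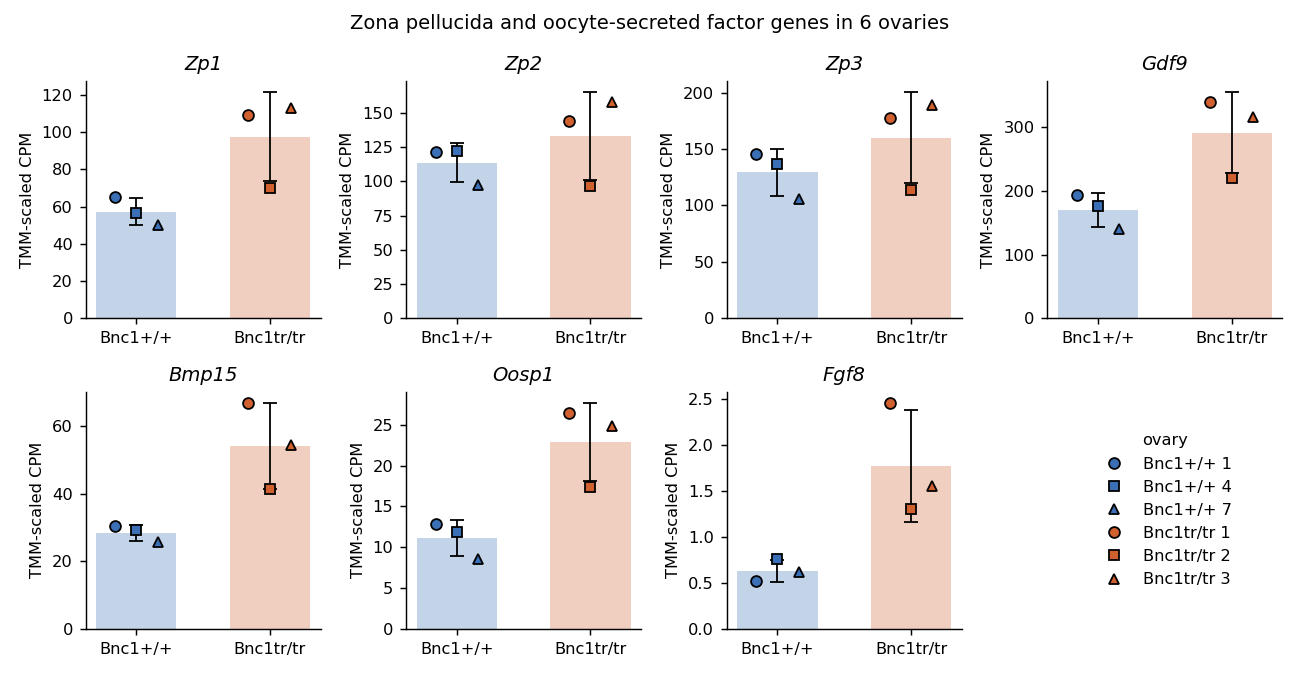
TMM-scaled CPM (vertical axis, from 0, scaled separately for each gene) of the 7 genes in each ovary, with bars for the mean and error bars for the SD of 3 ovaries per genotype. Bnc1tr/tr replicate 2 was the lowest Bnc1tr/tr ovary for every gene, and the genotypes overlapped for Zp2 and Zp3 only.

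None of the 3 zona genes was called, though Zp1 came close. Zp3, the most abundant zona transcript here by length (GRCm38 chromosome 5, from 135980099 to 135988624, plus strand), was read at 146, 137 and 106 CPM in Bnc1+/+ replicates 1, 4 and 7 and at 177, 114 and 189 CPM in Bnc1tr/tr replicates 1, 2 and 3. Bnc1tr/tr replicates 1 and 3 were above every Bnc1+/+ ovary and replicate 2 was among them. Its log2 fold change was 0.31 (95% CI -0.16 to 0.77, edgeR adjusted p = 0.395). Zp2, the zona protein that sperm bind (chromosome 7 from 120126772 to 120145291, minus strand), was read at 122, 122 and 97.8 CPM in Bnc1+/+ and 144, 96.6 and 158 CPM in Bnc1tr/tr ovaries in the same order. The lowest value of all 6 ovaries was that of Bnc1tr/tr replicate 2, and the log2 fold change was 0.22 (95% CI -0.20 to 0.65, edgeR adjusted p = 0.502). These intervals do not show that Zp2 and Zp3 were alike in both genotypes.

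Zp1, the cross-linking zona protein (chromosome 19 from 10914287 to 10920632, minus strand), was read at 64.9, 56.7 and 50.1 CPM in Bnc1+/+ and at 109, 70.1 and 113 CPM in Bnc1tr/tr ovaries. The genotypes did not overlap, though Bnc1tr/tr replicate 2 was only slightly above Bnc1+/+ replicate 1. The log2 fold change of Zp1 was 0.77 (95% CI 0.33 to 1.21) with an adjusted p of 0.0512 from edgeR, on the far side of the threshold by a small margin. It was called with library size as the only scaling (adjusted p = 0.0323), with no filter (0.0245), by DESeq2 (0.00157) and without Bnc1tr/tr replicate 2 (0.0127), and its adjusted p ranged from 0.00157 to 0.182 over all alternatives.

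Both TGF-β family ligands rose. Gdf9, which is needed for follicles to grow past the primary stage (chromosome 11 from 53431023 to 53437904, plus strand), had the most reads of the 7 genes, at 193, 177 and 140 CPM in Bnc1+/+ and 339, 220 and 316 CPM in Bnc1tr/tr ovaries. The log2 fold change was 0.78 (SE 0.18, 95% CI 0.35 to 1.20, edgeR adjusted p = 0.0458), a fold of 1.72. Bmp15, its X-linked partner (chromosome X from 6314107 to 6320721, minus strand), was read at 30.5, 29.2 and 25.9 CPM in Bnc1+/+ and at 66.8, 41.4 and 54.4 CPM in Bnc1tr/tr ovaries, with no overlap. Bmp15 varied little between Bnc1+/+ ovaries, with a coefficient of variation of 8.38% against 23.5% in Bnc1tr/tr. The log2 fold change of Bmp15 was 0.93 (SE 0.17, 95% CI 0.53 to 1.32, edgeR adjusted p = 0.0204). Uqcrq, a respiratory chain gene that starts 192 bases from Gdf9 on the opposite strand, was not called (log2 fold change -0.07, edgeR adjusted p = 0.815).

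Oosp1, an oocyte-secreted protein on chromosome 19 (from 11667460 to 11691150, minus strand), rose from 12.8, 11.9 and 8.61 CPM in Bnc1+/+ to 26.4, 17.4 and 24.8 CPM in Bnc1tr/tr ovaries. This was a log2 fold change of 1.04 (SE 0.20, 95% CI 0.57 to 1.51, edgeR adjusted p = 0.0262), a fold of 2.06. Fgf8, the fibroblast growth factor that acts with BMP15 on cumulus cells (chromosome 19 from 45736798 to 45742915, minus strand), was the rarest of the genes, with 14, 25 and 18 reads in Bnc1+/+ and 69, 34 and 44 reads in Bnc1tr/tr ovaries. As CPM this was 0.520, 0.755 and 0.620 against 2.45, 1.31 and 1.55. Every Bnc1tr/tr ovary was above every Bnc1+/+ ovary, and Bnc1tr/tr replicate 1 stood highest. Fgf8 had the widest interval as well as the greatest log2 fold change of the 7 genes, 1.48 (SE 0.33, 95% CI 0.71 to 2.24, edgeR adjusted p = 0.0398).

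The calls depended on which ovaries were fitted. The number of the 7 genes called was 1 without Bnc1+/+ replicate 1 (Oosp1), 0 without Bnc1+/+ replicate 4, 0 without Bnc1+/+ replicate 7, 1 without Bnc1tr/tr replicate 1 (Bmp15), 5 without Bnc1tr/tr replicate 2 (Zp1 was added) and 0 without Bnc1tr/tr replicate 3. Each of these fits had 5 ovaries in place of 6, and in each of them 5 of the 7 genes had an unadjusted p under 0.05 from edgeR, or all 7 without Bnc1tr/tr replicate 2. Over all genes, 320 to 1282 were called in these fits, against 1372 with all 6 ovaries. An unadjusted p under 0.05 was reached by 3474 to 4978 of the 19897 to 20040 genes tested in them. The other tools and scalings, run on all 6 ovaries, called 4 or 5 of the genes. All 7 log2 fold changes stayed positive under each of 14 alternatives. Leaving out both ovaries with high oviduct transcripts, an alternative added after seeing the data, left 0 of the 7 genes called by edgeR and 5 at an unadjusted p under 0.05. Over all genes, 304 of 19581 were called in that fit and 3174 had an unadjusted p under 0.05. The median log2 fold change of the 7 genes moved from 0.78 to 0.81.

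**Figure D2:**
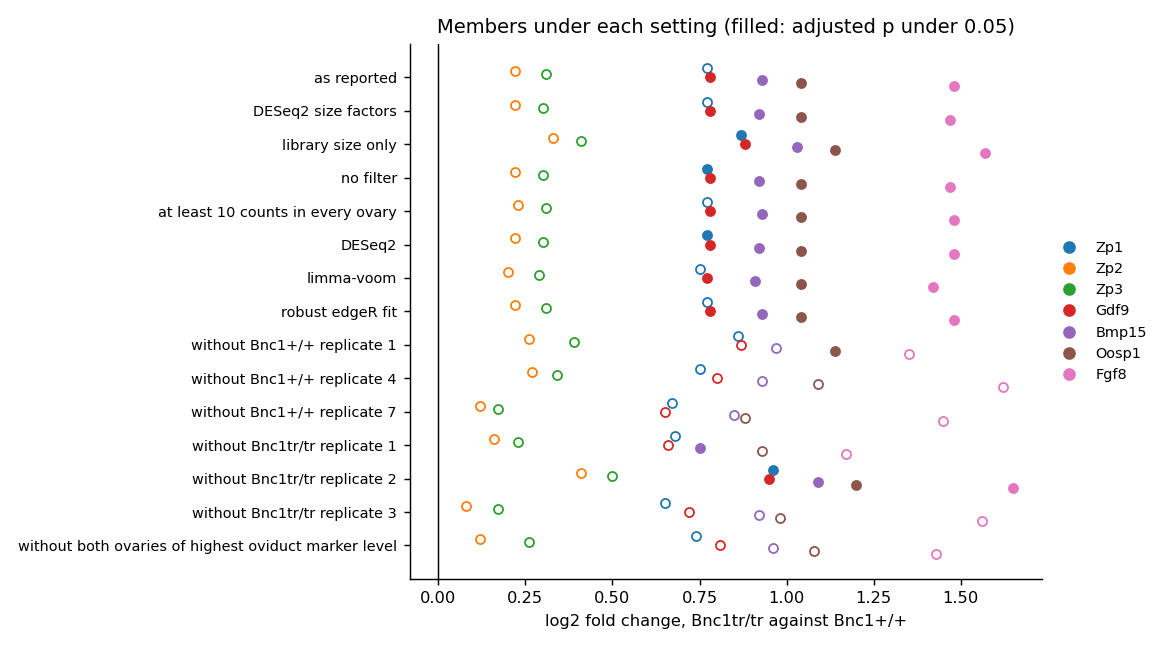
Log2 fold change (horizontal axis, Bnc1tr/tr against Bnc1+/+) of each of the 7 genes under each setting (1 line each), filled where the adjusted p was under 0.05. Under every setting drawn, Zp2 has the lowest and Fgf8 the highest value, and most circles are empty where an ovary is left out, except without Bnc1tr/tr replicate 2.

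By length, Zp3 and Gdf9 were the leading transcripts. Per kilobase of annotated exon, Zp3 reached 97.8 ± 15.9 CPM and Gdf9 83.7 ± 13.4 CPM (SD, n = 3 each) in Bnc1+/+ ovaries, and Zp3 was ahead of Gdf9 in all 3 of them. In Bnc1tr/tr ovaries Gdf9 was at 144 ± 31.2 and Zp3 at 121 ± 30.4 CPM per kilobase (SD, n = 3 each), and Gdf9 was ahead in all 3. The ranges of Gdf9 and Zp3 overlapped in both genotypes. Zp2 followed at 41.8 ± 5.12 and Zp1 at 28.9 ± 3.75 CPM per kilobase in Bnc1+/+ ovaries (SD, n = 3 each), with separate ranges, whereas in Bnc1tr/tr ovaries Zp1 and Zp2 overlapped, at 49.2 ± 12.0 and 48.8 ± 11.8. Oosp1 and Bmp15 came next and overlapped in both genotypes, at 11.4 ± 2.28 and 9.32 ± 0.781 CPM per kilobase in Bnc1+/+ and 23.5 ± 4.92 and 17.7 ± 4.16 in Bnc1tr/tr (SD, n = 3 each). Fgf8 lay far under the others in both genotypes, at 0.468 ± 0.0873 and 1.31 ± 0.447 CPM per kilobase (SD, n = 3 each).

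Ratios between the genes within an ovary do not depend on how its library was scaled. The summed zona transcripts stood to the sum of Gdf9 and Bmp15 as 1.49, 1.53 and 1.53 in Bnc1+/+ ovaries and as 1.06, 1.08 and 1.24 in Bnc1tr/tr ovaries. The mean log2 ratio was lower in Bnc1tr/tr ovaries with no overlap, a difference of -0.43 (exact two-sided permutation test, p = 0.1, the smallest p that 3 ovaries against 3 allow). Zp1 did not share this difference. Its ratios to Gdf9 and to Bmp15 overlapped between the genotypes (log2 differences -0.02 and -0.16, exact permutation p = 0.8 and 0.3). Relative to Gdf9, Zp2 and Zp3 were lower without overlap (-0.57 and -0.48, exact permutation p = 0.1 for each). Reads of Zp1 per read of Zp2 were 0.534, 0.464 and 0.513 in the Bnc1+/+ ovaries, against 0.757, 0.727 and 0.717 in the mutants. This mix of zona transcripts did not overlap between the genotypes (log2 difference 0.54, exact permutation p = 0.1, adjusted p = 0.14 over 21 pairs). Zp2 and Zp3 kept close to each other, with 0.834 to 0.925 reads of Zp2 per read of Zp3 in Bnc1+/+ and 0.814 to 0.846 in Bnc1tr/tr ovaries (log2 difference -0.09, exact permutation p = 0.3). Gdf9 gave 5.41 to 6.32 reads per read of Bmp15 in Bnc1+/+ and 5.07 to 5.81 in Bnc1tr/tr ovaries, with overlap (log2 difference -0.14, exact two-sided permutation test, p = 0.2). None of the 21 pairs of the 7 genes could pass a threshold of 0.05 with this number of ovaries.

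The 7 genes were also set against other oocyte transcripts, a common denominator that keeps the differences between them as in the pair ratios. That denominator was itself higher in Bnc1tr/tr ovaries, at 2061, 1374 and 1901 CPM against 1314, 1221 and 1067 in Bnc1+/+. A gene with the same CPM in every ovary would therefore be lower relative to it in Bnc1tr/tr. The share of all genes without overlap on such a ratio was not computed. Relative to the summed counts of 23 other oocyte genes of the same ovary, Zp2 was lower in every Bnc1tr/tr ovary than in any Bnc1+/+ ovary (mean log2 difference -0.35) and Zp3 overlapped (-0.26). Zp1, Gdf9, Bmp15, Oosp1 and Fgf8 were higher in every Bnc1tr/tr ovary, by mean log2 differences of 0.19, 0.22, 0.35, 0.49 and 0.88 (exact two-sided permutation tests, p = 0.1 for each, the smallest possible, and p = 0.2 for Zp3). Oosp1 held this ratio tightly in Bnc1tr/tr ovaries, at log2 values of -6.29, -6.30 and -6.26 against -6.68, -6.68 and -6.95 in Bnc1+/+. Summed over the 7 genes the ratio was 0.434, 0.438 and 0.402 in the Bnc1+/+ ovaries, against 0.420, 0.408 and 0.451 in the Bnc1tr/tr ovaries, a log2 difference of 0.01 (exact two-sided permutation test, p = 1). This value depended on the setting: it was -0.03 without Bnc1+/+ replicate 7 or without Bnc1tr/tr replicate 3 (exact permutation p = 0.6 for each), and 0.21 as a difference of mean log2 CPM, where every gene has the same weight (exact permutation p = 0.1). The sum is carried by Gdf9, Zp3 and Zp2, with Gdf9 above and Zp2 and Zp3 below their mean Bnc1+/+ ratios.

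**Figure D3:**
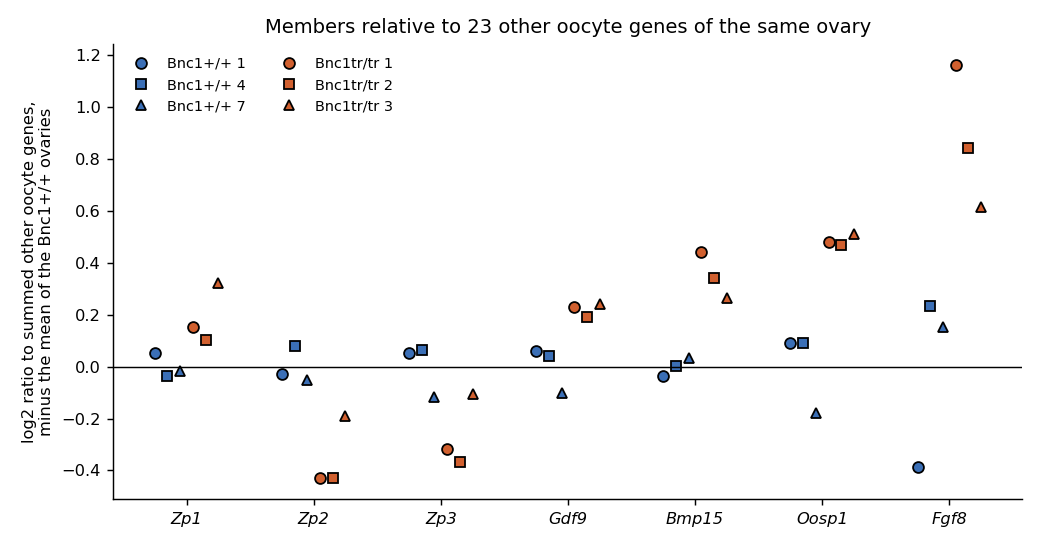
Log2 ratio of each of the 7 genes to the summed counts of 23 other oocyte genes in the same ovary, minus the mean of the 3 Bnc1+/+ ovaries (vertical axis), with a symbol for each ovary. In Bnc1tr/tr ovaries Zp2 lies under every Bnc1+/+ symbol and Zp3 overlaps the lowest of them, and the other 5 genes lie above.

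The 23 other oocyte genes, most of which encode maternal proteins of the egg, had log2 fold changes from -0.29 to 1.12. Of them, 6 rose, 0 were called lower and 21 had a positive log2 fold change, with a median of 0.63. Over all genes tested, 2.88% were called higher and 4.19% lower. The genes that rose were Mos (log2 fold change 1.12), the kinase that holds mature eggs in arrest, Dazl (1.09), a germ cell RNA-binding protein, Tcl1 (0.99), the nucleoplasmin Npm2 (0.83), E330034G19Rik (0.83) and Zbed3 (0.80), with edgeR adjusted p from 0.012 to 0.048. Nlrp5, a subunit of the maternal complex under the oocyte membrane, had a log2 fold change of 0.08 (95% CI -0.30 to 0.46), and the germ cell helicase Ddx4 had one of -0.07 (95% CI -0.64 to 0.50), which became 0.03 with library size as the only scaling. The list also holds Kit, a receptor that some somatic cells of the ovary express as well. The summed CPM of all 23 was 1314, 1221 and 1067 in the Bnc1+/+ ovaries, against 2061, 1374 and 1901 in the Bnc1tr/tr ovaries, without overlap. Among single genes tested, 15.0% were higher in Bnc1tr/tr ovaries without overlap. Without single ovaries these calls were lost in part: Mos was lost without Bnc1+/+ replicate 4 or 7, Tcl1 and Zbed3 also without Bnc1tr/tr replicate 3, and Dazl, Npm2 and E330034G19Rik were called only in the fit without Bnc1tr/tr replicate 2.

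**Figure D4:**
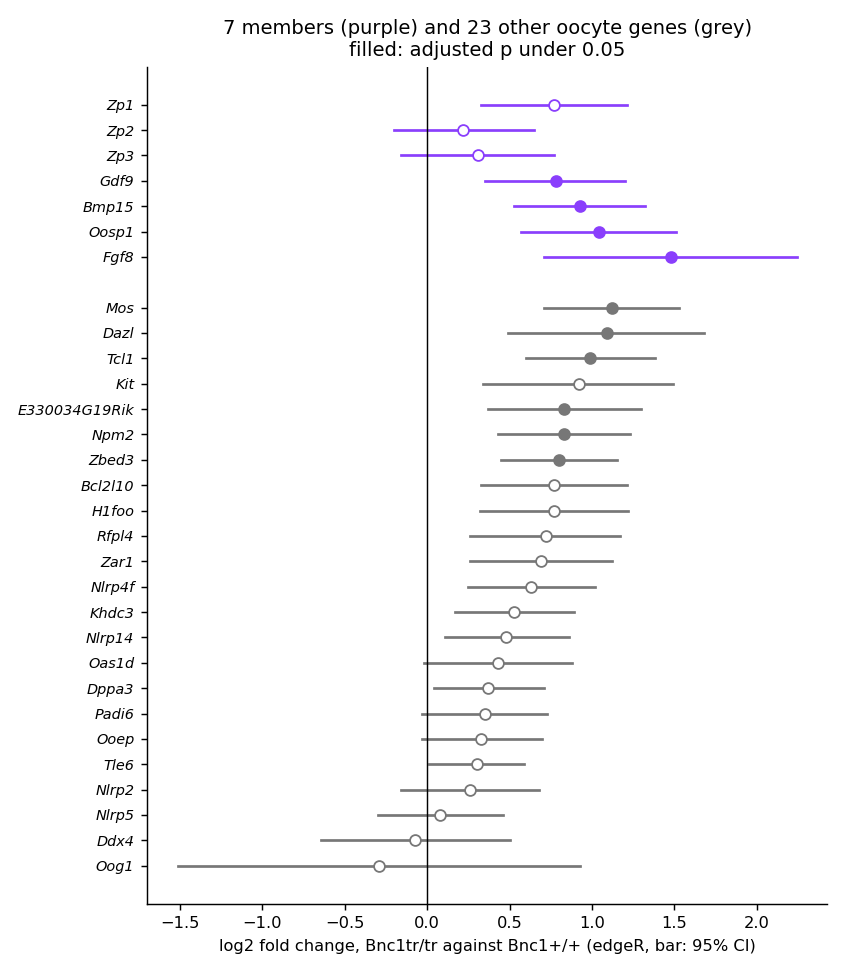
Log2 fold change with its 95% confidence interval (horizontal axis, Bnc1tr/tr against Bnc1+/+, edgeR) for the 7 genes (purple) and 23 other oocyte genes (grey), filled where the adjusted p was under 0.05. Zp2 and Zp3 sit with the grey genes near 0, Bmp15 and Oosp1 sit with Mos, Dazl and Tcl1, and Fgf8 lies beyond all 23.

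Among relatives of these genes, Astl rose. Astl encodes ovastacin, the egg protease that cuts ZP2 after fertilization, and was read at 35.4, 31.3 and 26.8 CPM in Bnc1+/+ and 76.6, 48.6 and 73.0 CPM in Bnc1tr/tr ovaries. The log2 fold change of Astl was 1.08 (SE 0.18, edgeR adjusted p = 0.0153), and the call was lost without Bnc1+/+ replicate 4 or 7 or Bnc1tr/tr replicate 3, with an adjusted p of at most 0.0886. Oosp2 and Oosp3, paralogs of Oosp1, were read at only 1.88 ± 0.641 and 2.48 ± 0.540 CPM in Bnc1+/+ ovaries (SD, n = 3 each) and had log2 fold changes of 0.40 (95% CI -0.31 to 1.11) and 0.13 (95% CI -0.45 to 0.71). Of 9 listed relatives, 7 were found by symbol and 6 were tested, and Astl was the single call, against 2.88% of all genes. Zp3r, a sperm gene on that list, had at most 3 reads in any ovary, and the testis markers Tnp1 and Tnp2 had none, with a sum over 6 testis markers of 0.0906 to 0.746 CPM.

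Of 10 genes for transcription factors that act in oocytes, 0 were called by edgeR. Nobox and Sohlh1 had an unadjusted p under 0.05, as did 4698 of all 19423 genes tested. Gata4, Tcf3 and Foxo3, with the highest levels of the list at 218, 171 and 108 CPM in Bnc1+/+ ovaries, are also expressed in somatic cells of the ovary, so the list does not describe the oocyte alone. Nobox was read at 27.3, 23.2 and 22.3 CPM in Bnc1+/+ and at 46.6, 28.3 and 39.3 CPM in Bnc1tr/tr ovaries, without overlap, a log2 fold change of 0.65 (95% CI 0.23 to 1.07, edgeR adjusted p = 0.0722). Figla was read at 2.15 ± 0.319 CPM in Bnc1+/+ and 2.11 ± 0.711 CPM in Bnc1tr/tr ovaries (SD, n = 3 each), a log2 fold change of -0.03 (95% CI -0.70 to 0.65) that was 0.07 with library size as the only scaling. Sohlh1, which acts in primordial follicles, had a log2 fold change of -0.46 (95% CI -0.89 to -0.02, edgeR adjusted p = 0.189).

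On the receiving side, the transducer Smad1 fell. SMAD1 carries BMP signals, BMP15 among them, from receptor to nucleus, and its transcript was read at 76.1, 84.1 and 91.8 CPM in Bnc1+/+ and 42.9, 41.6 and 44.4 CPM in Bnc1tr/tr ovaries. The log2 fold change of Smad1 was -0.97 (SE 0.09, 95% CI -1.18 to -0.75, edgeR adjusted p = 0.0023), and it was called under each of the 6 fits that left out an ovary. It was the single call among 18 receptors and SMADs, where the median log2 fold change was 0.05, against 4.19% of all genes called lower. Smad6 and Tgfbr3 had an unadjusted p under 0.05 and were higher in every Bnc1tr/tr ovary. Over all 19423 genes tested, 4698 had an unadjusted p under 0.05 and 15.0% were higher without overlap. The log2 fold changes of Smad6 and Tgfbr3 were 0.61 and 0.43 (edgeR adjusted p = 0.089 and 0.0991). Which cells of the ovary carried these differences was not tested. Bmpr2, the type II receptor of both ligands, was at 155 ± 5.18 and 174 ± 59.7 CPM (SD, n = 3 each; log2 fold change 0.17, 95% CI -0.32 to 0.65). Bmpr1b, the type I receptor for BMP15, reached 132 CPM in Bnc1tr/tr replicate 1 alone and was otherwise between 52.6 and 69.4 CPM in both genotypes (log2 fold change 0.57, 95% CI -0.08 to 1.22). Tgfbr1, the type I receptor for GDF9, had a log2 fold change of -0.27 (95% CI -0.67 to 0.13).

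Receptors and feedback genes of FGF signaling gave 0 calls of 14 by edgeR and a median log2 fold change of 0.02. An unadjusted p under 0.05 was reached by 5 of them, against 4698 of all 19423 genes tested. Fgfr2 and Spry4 had positive log2 fold changes, and Fgfr3, Dusp6 and Etv4 negative. Fgfr2 stood at 63.6 ± 2.70 CPM in Bnc1+/+ and 85.4 ± 11.2 CPM in Bnc1tr/tr ovaries (SD, n = 3 each; log2 fold change 0.43, edgeR adjusted p = 0.0549). Fgfr3 and the feedback phosphatase Dusp6 had log2 fold changes of -0.90 (95% CI -1.59 to -0.21, adjusted p = 0.114) and -0.58 (95% CI -0.93 to -0.22, adjusted p = 0.0639).

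Genes listed for the answer of cumulus and granulosa cells to the oocyte moved in both directions. The RNA was of whole ovaries, and which cells the differences came from was not tested. Amh, anti-Müllerian hormone from granulosa cells of growing follicles, rose from 145, 193 and 183 CPM in Bnc1+/+ to 383, 252 and 454 CPM in Bnc1tr/tr ovaries (log2 fold change 1.06, SE 0.21, edgeR adjusted p = 0.0294), a call held only without Bnc1tr/tr replicate 2 among the 6 fits that left out an ovary (adjusted p up to 0.163 over all alternatives). It was the single call among 8 tested cumulus response genes, against 2.88% of all genes called higher. The hyaluronan synthase Has2 and the prostaglandin synthase Ptgs2 were too low to be tested. Ptx3, a cumulus matrix protein, was at 2.31 ± 0.568 and 1.17 ± 0.0923 CPM (SD, n = 3 each; log2 fold change -0.98, edgeR adjusted p = 0.0654). Of 6 glycolysis genes, Pfkp and Aldoa fell, against 4.19% of all genes called lower, and the others were not called. Of those, Pkm alone had an unadjusted p under 0.05, as did 4698 of all 19423 genes tested (log2 fold change -0.42, edgeR adjusted p = 0.0913). Pkm was lower in every Bnc1tr/tr ovary, and the share of all genes lower without overlap was not computed. Pfkp, the platelet-type phosphofructokinase, fell from 85.3, 80.1 and 87.1 to 39.3, 47.0 and 50.1 CPM (log2 fold change -0.89, SE 0.11, edgeR adjusted p = 0.00456), and was called in each of the 6 fits that left out an ovary. Aldoa had a log2 fold change of -0.58 (edgeR adjusted p = 0.0443) that was called in 1 of the 6 fits that left out an ovary, the one without Bnc1+/+ replicate 7.

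Markers of other cell types were set beside these genes. Over all 19423 genes tested, 2.88% were called higher and 4.19% lower by edgeR, and 4698 had an unadjusted p under 0.05. Of 11 luteal markers, 9 fell and 0 rose: Lhcgr, Prlr, Hsd3b1, Cyp11a1, Star, Scarb1, Ptgfr, Sfrp4 and Hsd17b7, of which Lhcgr, Scarb1 and Hsd17b7 were called in each of the 6 fits that left out an ovary. Their summed level was 23800 to 28860 CPM in Bnc1+/+ against 7440 to 12750 in Bnc1tr/tr ovaries. Bnc1tr/tr replicate 1 had the lowest luteal sum and the highest summed level of the 7 genes, 866 CPM, and Bnc1tr/tr replicate 2 had the highest luteal sum and the lowest level of the 7 genes in that genotype, 561 CPM. Within Bnc1+/+ ovaries the 7 genes summed to 570, 534 and 429 CPM in replicates 1, 4 and 7, where the luteal sums were 23800, 28860 and 28150 CPM. Replicate 1 had the highest sum of the 7 genes and the lowest luteal sum. The lowest sum of the 7 genes was in replicate 7, and the highest luteal sum in replicate 4. CPM are shares of a library, and the part of the luteal difference in these results was not tested. Granulosa markers overlapped between the genotypes, at 4539 to 5844 CPM in Bnc1+/+ and 4793 to 7481 in Bnc1tr/tr ovaries, with 1 of 10 called (Amh). Foxl2 (log2 fold change -0.29, no overlap) and Inha (0.50, with overlap) also had an unadjusted p under 0.05 from edgeR, in opposite directions. Theca markers summed to 1953 to 2114 CPM over all 6 ovaries, with 0 of 6 called by edgeR. Most of that sum was Col3a1 and Acta2, whose wild-type means were 969 and 828 CPM. Cyp17a1, on the same list, varied from 3.65 CPM (mutant replicate 2) to 235 CPM (mutant replicate 1), and from 8.6 to 123.5 CPM among wild-type ovaries. The steady sum therefore does not show that theca content was alike. Gli1 and Ptch1 had an unadjusted p under 0.05 (log2 fold changes 0.44 and 0.53). Both were higher without overlap, as were 15.0% of all genes tested. Oviduct markers gave 0 calls of 9 tested by edgeR, with Pax8 alone at an unadjusted p under 0.05. The part of the oviduct transcripts in the results was not tested beyond the fit without both ovaries. Surface epithelium markers gave 1 call of 8 (Lrrn4, higher), which was lost without any of the 3 Bnc1+/+ ovaries. Blood and immune markers gave 0 of 8 by edgeR, with 2 at an unadjusted p under 0.05, Cd74 and Hbb-bs.

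**Figure D5:**
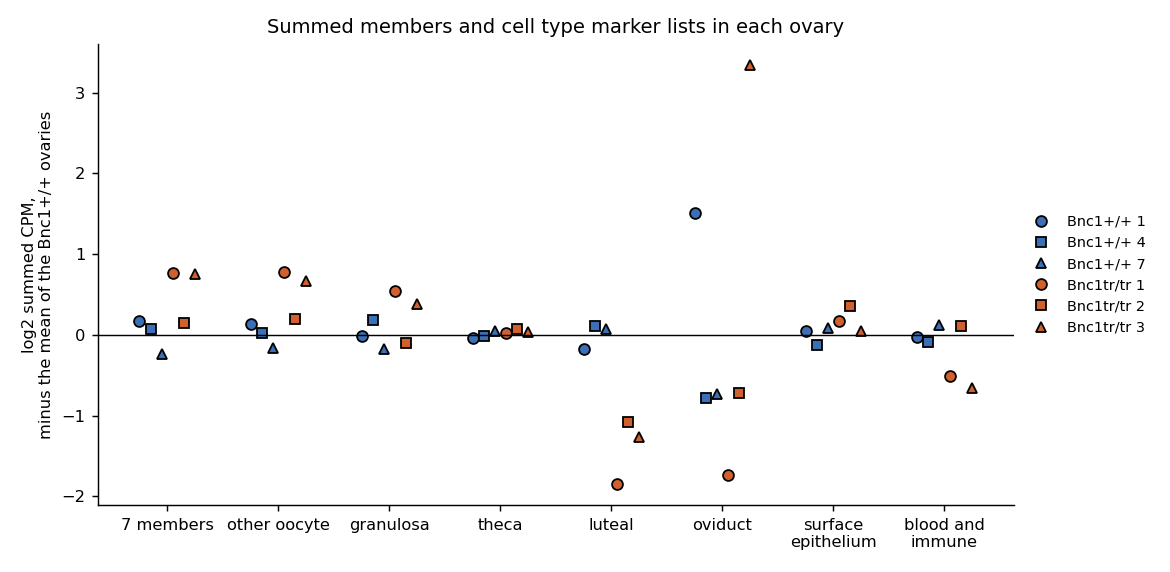
Log2 of summed CPM of the 7 genes, the other oocyte genes and 6 lists of cell type markers in each ovary, minus the mean of the Bnc1+/+ ovaries (vertical axis). The 7 genes and the other oocyte genes run together, luteal markers are lower in all 3 Bnc1tr/tr ovaries, and oviduct markers are high in Bnc1+/+ replicate 1 and Bnc1tr/tr replicate 3.

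Over the 6 ovaries, Gdf9 followed the mean of the other members most closely (Pearson's r = 0.99 on log2 CPM) and Zp2 least (r = 0.74). Zp2 and Zp3 followed each other (r = 0.99), whereas Zp2 and Fgf8 were at r = 0.52. Ranked by r with the mean centred profile of the 7 genes among 16742 genes with a mean of at least 1 CPM, the 10 closest genes were Acsl3, E330034G19Rik, Mfsd2a, Ccno, Fbxw19, Pou4f1, Obox2, Nlrp4f, Npm2 and Chaf1a, with r from 0.9969 to 0.9985. Of these, E330034G19Rik, Nlrp4f and Npm2 were on the list of other oocyte genes. Ccno, Fbxw19, Obox2, E330034G19Rik and Npm2 were also called higher, against 2.88% of all genes tested. The 10 genes were picked for a profile that was itself higher in every Bnc1tr/tr ovary, so these calls follow from the choice. These correlations come from 6 libraries that differ by genotype and are given as a description.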

How the data were processed

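Total RNA was extracted with TRIzol from whole ovaries (3 Bnc1+/+ and 3 Bnc1tr/tr samples), and single-end libraries were read by Ion Proton sequencing. The files deposited by the authors hold raw read counts per gene symbol without normalization. The submitters' processing notes name the builds mm10 and Sscrofa10.2; aligner, counter, annotation and use of strand are not given in the sources used here, so genes that overlap others (such as Aldoa, Pfkp, Npm2 and Zbed3) may share reads.

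Counts were filtered with filterByExpr (minimum count 10), scaled with TMM and compared with edgeR 4.0.16 (R 4.3.3; quasi-likelihood, two-sided, Benjamini-Hochberg over 19423 of 44788 genes, threshold 0.05). The fit was tested on simulated data. Libraries of a genotype differed by 17.0 to 64.4 in chi-square per degree of freedom, so no 2 were copies of each other. Ratios of a pair of genes added a prior count of 0.5 to each. Ratios of a gene to the summed other oocyte genes added it to the gene alone, and ratios between sums of CPM used none. All were compared by exact permutation tests. Log2 CPM for correlations used a prior count of 2. Exon lengths came from GENCODE M21 (union of exons) and promoters from RefSeq (GRCm38.p6).

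The genes and lists were chosen with earlier results of these data known. The naming rule was all 7 genes, then from each list the genes called, or else up to 4 of highest CPM, and the 10 genes most alike in profile. Other genes named (such as Oosp2, Oosp3, Figla, Sohlh1, Nlrp5, Ddx4, Bmpr2, Bmpr1b, Tgfbr1, Fgfr3, Dusp6, Ptx3 and all named for an unadjusted p) were picked after their values were seen, for their role or their p. Adgre1 was matched as Emr1, and Zp4 and Oosp4 were not matched. Intervals of fold changes are 95% from edgeR. Alternatives were DESeq2 size factors or library size as scaling, no filter or at least 10 counts in every ovary, DESeq2 1.42.0, limma-voom 3.58.1, a robust fit and leaving out each ovary.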

Additional observations from a re-analysis of the deposited data

How the results depend on the processing

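The direction of all 7 log2 fold changes held under each alternative, and their median lay between 0.67 and 0.96. The number of all genes called, 1372, was 2420 with DESeq2 and 4698 at an unadjusted p under 0.05, and lay between 320 and 1282 when each ovary was left out. The share of calls that were lower was 59.3%, and 35.6% with library size as the only scaling, which moved the median of all genes to 0.118. The number of the 7 genes called lay between 0 and 5 when each ovary was left out. Without both ovaries of high oviduct transcripts, an alternative chosen after seeing the data, 304 genes and 0 of the 7 were called by edgeR, with 3174 and 5 at an unadjusted p under 0.05. The log2 difference of the ratio of zona transcripts to Gdf9 plus Bmp15 lay between -0.50 and -0.39, and that of Gdf9 to Bmp15 between -0.20 and -0.09. That of the 7 genes to other oocyte genes, 0.01 as reported, changed sign to -0.03 without Bnc1+/+ replicate 7 and to -0.03 without Bnc1tr/tr replicate 3, was at most 0.04 (without Bnc1tr/tr replicate 2) with 1 ovary left out, and was 0.21 as a difference of mean log2 CPM. The cause was not tested.

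No paired analysis was possible because the genotypes share only replicate number 1 and no source used here says which ovaries are from the same litter. With 3 ovaries per genotype the exact tests could not give a p under 0.1. Fgf8 rested on 14 to 69 reads per ovary, and its fold change is the least precise of the 7.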
